A study of Danio rerio with 12 samples.

Results

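UDP-glucuronosyltransferases and sulfotransferases attach a sugar acid or a sulfate group to drugs, hormones, bile pigments and other small molecules. Their genes were taken as all zebrafish Ensembl identifiers whose symbol begins with ugt1, ugt2 or ugt5 and a letter, or with sult and a digit. This rule gave 48 of the 32520 identifiers in the tables, of which 29 were UDP-glucuronosyltransferases (7 in the ugt1 family, 7 in ugt2 and 15 in ugt5) and 19 were sulfotransferases (8 in sult1, 3 in sult2, 5 in sult3 and 1 each in sult4, sult5 and sult6). RNA had been sequenced from whole liver of adult zebrafish in 12 libraries, 6 labelled glo2-/- and 6 labelled glo2+/+. The glo2-/- fish carry a CRISPR knockout of glyoxalase 2, an enzyme that completes the breakdown of the reactive glycolysis by-product methylglyoxal, and the glo2+/+ fish are wild type for it. Both groups share the Tg(fli1:EGFP) background, where the fli1 promoter drives a green fluorescent protein in endothelial cells, and both were marked as not trained. What the allele deletes, how many founder lines it rests on and the sex or exact age of the fish are not in the labels. Nor do these state that the 12 libraries stand for 12 fish, so p-values rest on a spread between libraries that may in part be technical.

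The liver uses both reactions to turn fat-soluble compounds into water-soluble conjugates that leave through bile and urine. UDP-glucuronosyltransferases sit in the membrane of the endoplasmic reticulum and take glucuronic acid from UDP-glucuronate, while the cytosolic sulfotransferases take sulfate from the donor PAPS. In fish many of these genes lie side by side as tandem copies of similar sequence. Members of the ugt1 family, as in mammals, join alternative first exons to shared downstream exons, and the ugt5 family is known from fish and not from mammals. Among sulfotransferases, sult1 enzymes act mainly on phenols and sult2 enzymes on hydroxysteroids. In mammals SULT4A1 is a brain protein.

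Each library held between 17433960 and 18465485 estimated counts, and 14509 genes passed the filter on low counts and were tested. All 16 hepatocyte markers were tested, and their mean log2 CPM (CPM, counts per 1000000 counts of a library) was 11.94 to 12.55 in glo2-/- and 11.98 to 12.61 in glo2+/+ libraries. Exocrine pancreas markers ranged far more widely, from 0.85 to 7.85 in glo2-/- and from 0.00 to 6.11 in glo2+/+ libraries. HAGH (ENSDARG00000025338), the gene of glyoxalase 2, stood at 81.5 ± 4.47 CPM in the glo2-/- group, against 94.8 ± 5.40 CPM in the glo2+/+ group (SD, 6 libraries each), so its transcript was present in both groups. Whole liver is a mixture, and fewer cells of a type and less RNA per cell cannot be told apart in these libraries.

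Adult liver expressed most of the conjugation genes, but a few copies made up the bulk of the transcripts. Counting a gene as expressed at a mean of at least 1 TPM over the 12 libraries (transcripts scaled to a library sum of 1000000, which divides by transcript length and so allows genes to be compared), 35 of the 48 were expressed, 24 of 29 UDP-glucuronosyltransferases and 11 of 19 sulfotransferases. The share was 72.9% of these genes, while 11629 (35.8%) of all 32520 identifiers reached this level. That wider set is not limited to named genes, as 29201 of its identifiers had a symbol. Of the 35, 13 averaged at least 10 TPM and 22 lay between 1 and 10 TPM. The lowest gene counted as expressed was sult6b1 at 1.11 TPM and the highest one not counted was ugt5f1 at 0.973 TPM. Summed over all members, UDP-glucuronosyltransferase transcripts reached 609 ± 78.0 TPM in glo2-/- and 626 ± 120 TPM in glo2+/+ liver (SD, n = 6 each). Sulfotransferase transcripts reached 268 ± 45.4 TPM in glo2-/- and 339 ± 69.7 TPM in glo2+/+ liver (SD, n = 6 each). The 4 highest members of each kind carried 76.2 ± 2.22% of the UDP-glucuronosyltransferase and 90.9 ± 3.13% of the sulfotransferase transcripts (SD, n = 12).

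UGT1A1 (ENSDARG00000006220), whose human counterpart conjugates bilirubin, was the most abundant member, at rank 431 among all genes by mean TPM. Its lowest, median and highest levels were 152, 189.7 and 237 TPM in glo2-/- libraries and 121, 184 and 258 TPM in glo2+/+ libraries. The glo2-/- range lay within the wider glo2+/+ range. It held 85.7 ± 1.85% of ugt1 family TPM (SD, n = 12) and was the highest ugt1 gene in 12 of 12 libraries. The tables list a single identifier for the ugt1a cluster, whereas the RefSeq annotation of the later assembly GRCz12tu names 7 ugt1a genes there with overlapping spans. The level of UGT1A1 thus may cover several first-exon variants, which the tables do not separate. The ugt1b copies were lower, led by ugt1b5 at 20.1 ± 4.15 TPM and ugt1b4 at 4.66 ± 1.47 TPM, with ugt1b3, ugt1b7 and ugt1b1 at 2.44, 1.86 and 1.54 TPM (means, SD where given, n = 12).

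In the ugt2 family, ugt2a4 (ENSDARG00000051940) carried 76.3 ± 6.43% of the TPM (SD, n = 12) and was the highest copy in all 12 libraries. It had 57.7, 107 and 150 TPM as lowest, median and highest values in glo2-/- libraries and 63.1, 109.5 and 128 TPM in glo2+/+ libraries. The 2 ranges overlapped. Mean levels of the other expressed ugt2 copies were 12.8 TPM for ugt2a7, 6.47 TPM for ugt2b1, 5.31 TPM for ugt2b5, 3.85 TPM for ugt2b3 and 2.77 TPM for ugt2a5. The adjacent gene ugt2a5 was thus expressed at a small fraction of ugt2a4, which held 97.4 ± 0.486% of the TPM of that pair. In GRCz12tu the span of ugt2a4 overlaps those of ugt2a1, ugt2a2 and ugt2a3, which have no identifier among the members. The span of ugt2a5 overlaps none of them. The level given for ugt2a4, and its share of the pair, may therefore cover several genes, which were not separated here.

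The ugt5 family was spread over more copies than the other UDP-glucuronosyltransferases, with 12 of 15 expressed. Its highest copy, ugt5c2 (ENSDARG00000006372), had 82.5, 120.4 and 136 TPM as lowest, median and highest values in glo2-/- libraries and 92.2, 141 and 160.0 TPM in glo2+/+ libraries. It accounted for 46.9 ± 5.36% of ugt5 TPM (SD, n = 12) and was the highest of its family in all 12 libraries. Next came ugt5d1 at 55.1 ± 15.1 TPM, which has no other family gene within 10 places in the RefSeq gene order. The 5 neighbouring copies ugt5b1 to ugt5b5 were all expressed, from 5.17 TPM for ugt5b3 to 17.8 TPM for ugt5b2. None of these 5 held more than 34.0 ± 5.50% of their summed TPM on average. RefSeq lists ugt5b5, which had 11.3 TPM, as a transcribed pseudogene. The remaining expressed copies were ugt5e1 at 11.09 TPM, ugt5c3 at 7.52 TPM, ugt5a1 at 5.22 TPM, ugt5a2 at 5.20 TPM and ugt5g1 at 3.48 TPM.

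**Figure D1:**
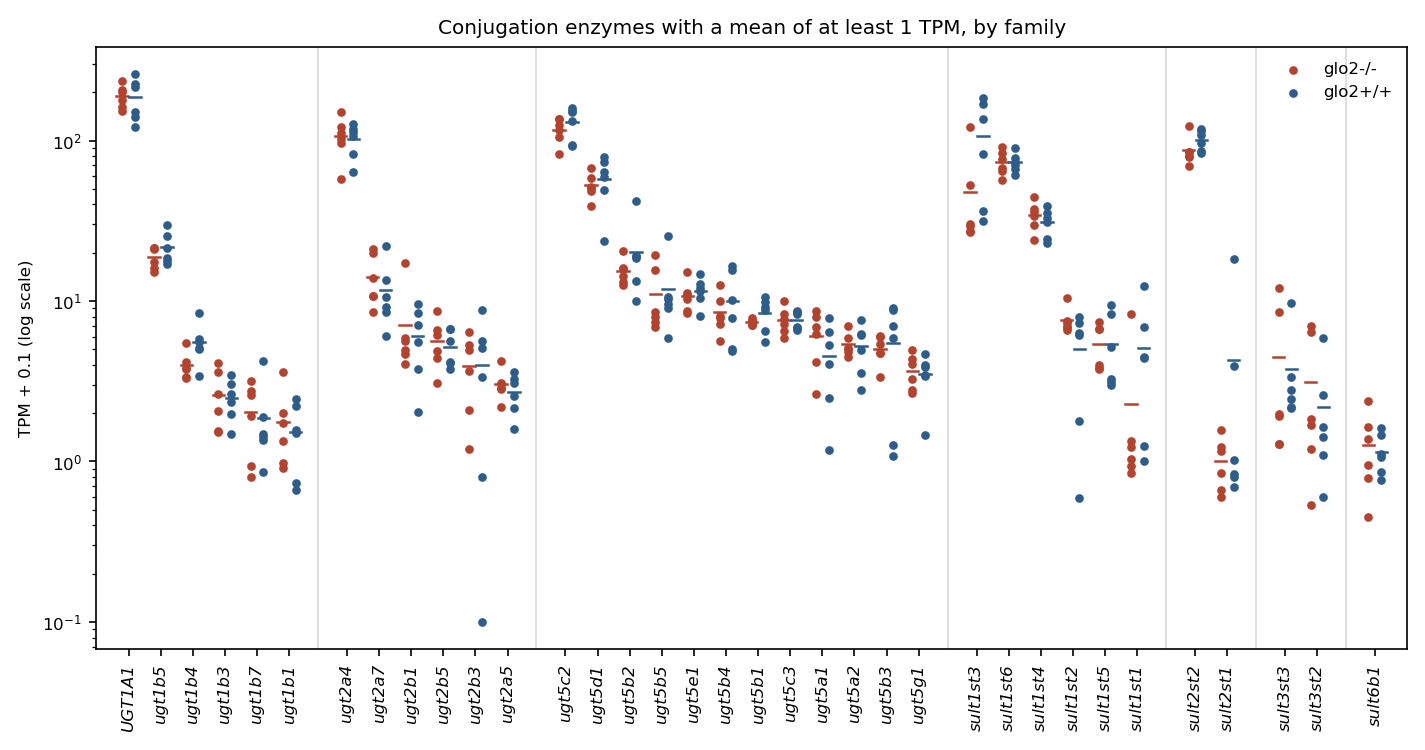
TPM plus 0.1 on a log axis for the 35 genes with a mean of at least 1 TPM, grouped by family and ordered by mean level. Each point is a library, with 6 glo2-/- libraries left and 6 glo2+/+ libraries right for each gene, and bars mark the group means; UGT1A1, ugt2a4, ugt5c2 and sult2st2 stand above the other copies of their families in all 12 libraries.

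Among sulfotransferases the hydroxysteroid enzyme sult2st2 (ENSDARG00000103785) was the most abundant on average. Its lowest, median and highest levels were 69.5, 82.4 and 123 TPM in glo2-/- libraries and 83.6, 102 and 117 TPM in glo2+/+ libraries. It held 96.9 ± 3.85% of sult2 TPM (SD, n = 12), while its neighbour sult2st1 averaged 2.55 TPM and sult2st3 0.896 TPM. In the sult1 family of phenol sulfotransferases no single copy led throughout. sult1st6 (ENSDARG00000006811) was highest in 7 libraries and sult1st3 (ENSDARG00000018361) in 5. sult1st6 was even, with 56.6, 71.8 and 90.7 TPM as lowest, median and highest values in glo2-/- libraries and 60.5, 72.1 and 89.2 TPM in glo2+/+ libraries. The share of sult1st3 in the family instead ranged from 16.7% to 59.3% between libraries. Mean levels of the further expressed sult1 copies were 32.5 TPM for sult1st4, 6.20 TPM for sult1st2, 5.29 TPM for sult1st5 and 3.57 TPM for sult1st1.

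The sult3 and sult6 members were low. sult3st3 (ENSDARG00000042920) had 1.18, 1.86 and 11.9 TPM as lowest, median and highest values in glo2-/- libraries and 2.06, 2.53 and 9.59 TPM in glo2+/+ libraries. It was the highest sult3 gene in 10 libraries and sult3st2 in the other two. The only sult6 gene, sult6b1 (ENSDARG00000086826), had 0.354, 1.07 and 2.27 TPM in glo2-/- libraries and 0.668, 0.993 and 1.52 TPM in glo2+/+ libraries, in the same order. Below 1 TPM lay 13 members, among them SULT4A1 at 0.0893 TPM, sult5a1 at 0.0588 TPM, sult3st1 at 0.0613 TPM and sult1st9 at 0.0442 TPM. ugt5g2 had 0 counts in all 12 libraries, and 3 counts, the limit that a count of 0 allows, would equal 0.144 to 0.188 CPM in glo2-/- libraries and 0.152 to 0.199 CPM in glo2+/+ libraries (counting error only). ugt5f1, sult2st3 and ugt5c1 fell below 1 TPM but had enough counts to be tested, and the other 10 did not. The untested copies not yet named, sult3st4, ugt2a6, ugt1b2, sult1st7 and sult3st5, averaged between 0.175 and 0.264 TPM.

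By the RefSeq gene order of GRCz12tu, 31 of the 48 genes fell into 9 runs of neighbouring copies (members of a family within 10 places of each other), and 25 of these 31 were expressed. Expression within a run was uneven in some and even in others. In the run sult1st1, sult1st2, sult1st3, sult1st7 and sult1st9, 3 of 5 were expressed and sult1st3 held 84.5 ± 6.86% of the TPM. In the ugt5c run 2 of 3 were expressed and ugt5c2 held 93.7 ± 1.23%. In the ugt1b run 5 of 6 were expressed and ugt1b5 held 65.5 ± 5.22%. ugt5a1 and ugt5a2 were almost equal, with 47.6 ± 10.3% of their sum in ugt5a1 (SD, n = 12 throughout). Runs and shares cover only the copies with an identifier among the 48. RefSeq places further copies in some runs, such as ugt5a3, ugt5a4 and ugt5a5 beside ugt5a1 and ugt5b6 beside ugt5b1, and their levels are not known here.

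The separation of copies is less certain than that of unrelated genes, because kallisto divides reads that match several transcripts by likelihood. Estimated counts were whole in every library for 15 members, 8 of them expressed, which include sult1st6, sult1st4, sult1st1, sult1st5, ugt5d1, ugt5e1, ugt5g1 and sult6b1. In 24 members they were not whole in at least 10 of the 12 libraries, sult1st2, sult1st3, ugt2a4, sult2st2 and all 5 ugt5b copies among them. In GRCz12tu, 18 members overlap the span of another gene of these families, and the strand setting of the counting is not given in the sources used here. Levels of such copies are uncertain one by one.

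Libraries of the same genotype differed most in ugt2b3 and 7 sulfotransferases. The spread was taken as the SD of log2 CPM within genotype, pooled over both groups. Its median was 0.51 over the 38 tested members and 0.38 over all 14509 tested genes, 0.42 over the 26 UDP-glucuronosyltransferases and 1.00 over the 12 sulfotransferases. Spread grows at low counts, and with a floor of 5 CPM the median was 0.39 over 25 members and 0.30 over 7964 genes. Above that floor the 20 UDP-glucuronosyltransferases had 0.39 and the 5 sulfotransferases 0.26. The wide sulfotransferases were thus mostly low ones, with sult1st3 and sult1st2 as the exceptions above 5 CPM. Of the 38 tested members, 8 had a spread above 0.79, the 90th percentile of all tested genes, namely ugt2b3, sult2st3, sult3st2, sult1st1, sult2st1, sult3st3, sult1st2 and sult1st3. ugt2b3 ranged from 0.599 to 4.37 CPM in glo2-/- libraries and from 0 to 4.67 CPM in glo2+/+ libraries. The smallest spreads among the tested members were an SD of 0.17 for ugt5b1, 0.20 for sult2st2 and 0.23 for sult1st6.

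**Figure D2:**
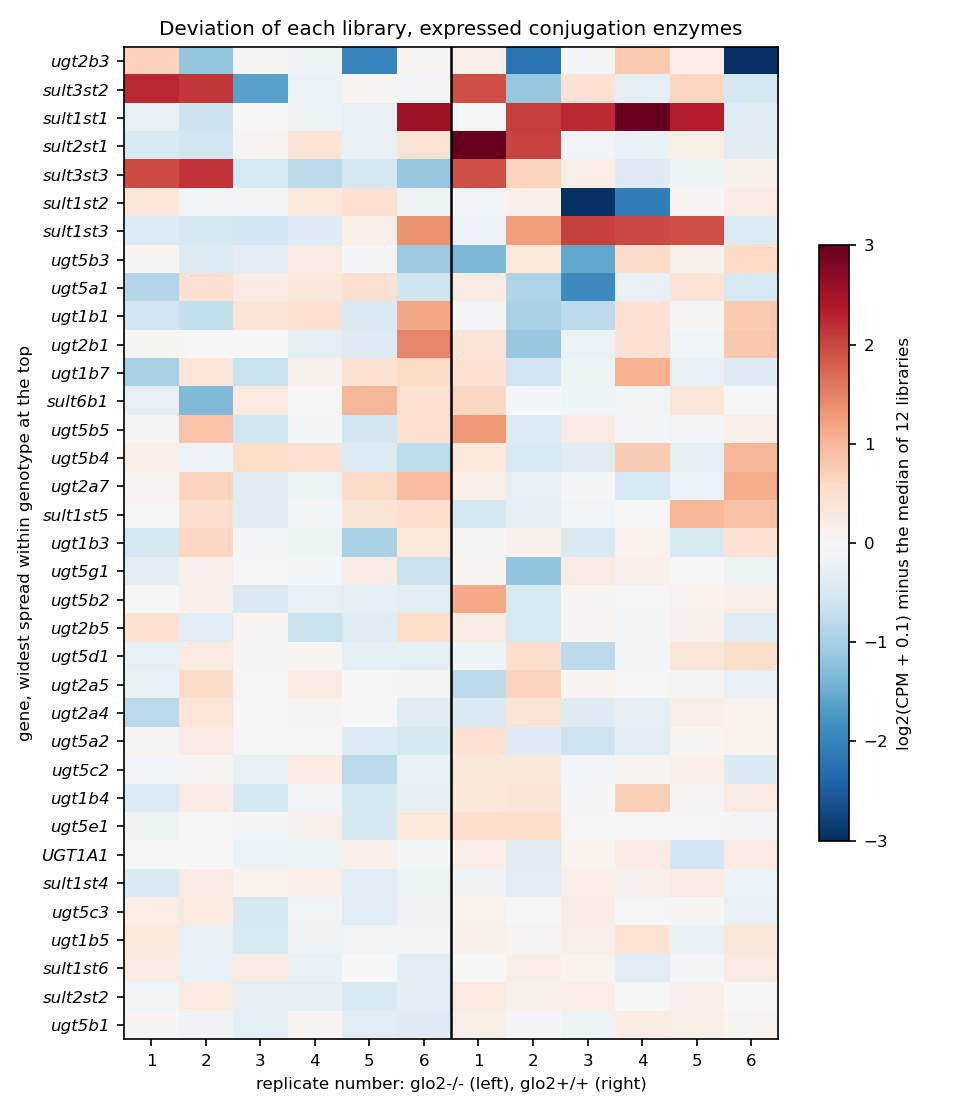
Deviation of each library from the median of the 12 libraries, in log2(CPM + 0.1), for the 35 expressed genes, with the widest spread within genotype at the top. glo2-/- replicates are left of the line and glo2+/+ replicates right, and colours end at 3 in either direction. sult1st3 and sult1st1 are highest in the same 5 libraries and sult3st2 and sult3st3 in the same 3.

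Levels of sult1st3 formed a lower and a higher set of libraries. In glo2-/- libraries it had 42.2, 39.4, 37.7, 42.6, 63.2 and 143 CPM (replicates 1 to 6). In glo2+/+ libraries it had 49.8, 134.5, 234, 221, 215 and 41.9 CPM in the same order. The libraries above 134 CPM were glo2-/- replicate 6 and glo2+/+ replicates 2, 3, 4 and 5, and the other 7 lay between 37.7 and 63.2 CPM. The neighbouring copy sult1st1 was highest in the same 5 libraries, at 7.02 to 14.8 CPM, against 0.973 to 1.60 CPM in the other 7. All sult1st1 counts were whole numbers. Another neighbour, sult1st2, showed another pattern: it had 0.863 CPM in glo2+/+ replicate 3 and 2.03 CPM in glo2+/+ replicate 4, against 8.18 to 12.3 CPM in the other 10 libraries. Counts of sult1st2 and sult1st3 were not whole in any library, so how reads were divided between them may differ between libraries, and that was not tested. sult3st4, a sult3 copy too low to be tested, had its 4 highest libraries within the same 5, at most 1.72 CPM. The neighbour sult1st7, also too low to be tested, was highest in the same 5 libraries, from 0.0621 to 0.914 CPM. Its counts there were few, from 1 to 18. In that set glo2+/+ replicate 2 had 1 count, as did glo2+/+ replicate 1 outside it, and only library size set these apart.

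**Figure D3:**
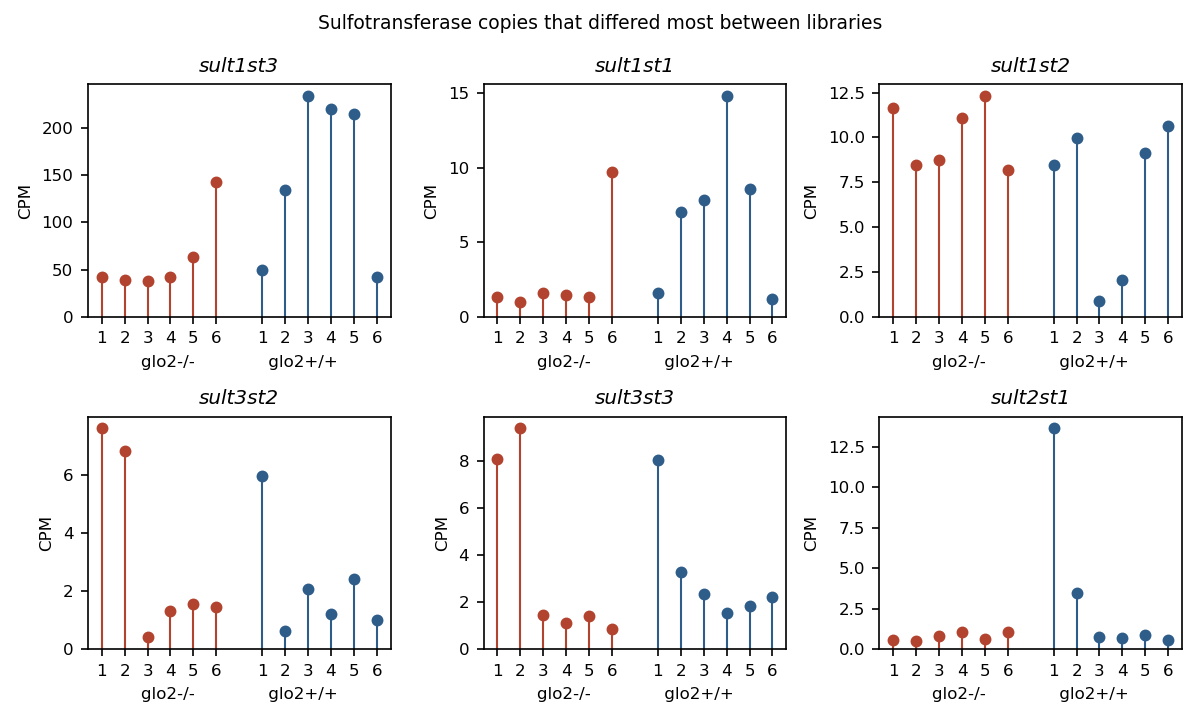
CPM (linear axes from 0) of 6 sulfotransferases in each library, glo2-/- replicates 1 to 6 left and glo2+/+ replicates 1 to 6 right in each panel. sult1st3 and sult1st1 are high in glo2-/- replicate 6 and glo2+/+ replicates 2 to 5, sult3st2 and sult3st3 in glo2-/- replicates 1 and 2 and glo2+/+ replicate 1, and sult2st1 in glo2+/+ replicates 1 and 2.

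A different set of libraries was high in the sult3 neighbours. sult3st2 lay between 5.96 and 7.61 CPM in glo2-/- replicates 1 and 2 and glo2+/+ replicate 1, against 0.412 to 2.40 CPM in the other 9. sult3st3 lay between 8.04 and 9.41 CPM in these 3 libraries and between 0.866 and 3.29 CPM in the other 9. Both genotypes thus had high and low libraries for this pair. glo2+/+ replicate 1 also had the most sult2st1, at 13.7 CPM, followed by glo2+/+ replicate 2 at 3.48 CPM, with 0.487 to 1.06 CPM in the other 10. It further had the most ugt5b2, at 61.8 CPM against 20.5 to 32.1 CPM in the other 11, and the most ugt5b5, at 35.6 CPM.

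Marker levels of other tissues were set beside these libraries, as mean log2 CPM. Exocrine pancreas markers (22 of 24 tested) stood at 7.85 and 0.85 in glo2-/- replicates 1 and 2 and at 4.75 in glo2+/+ replicate 1. These values ran from near the bottom to the top of the 12 libraries. In glo2-/- replicate 6 the pancreas markers stood at 1.21, and in glo2+/+ replicates 2 to 5 at 5.20, 5.50, 0.0048 and 2.46. Egg yolk and oestrogen receptor genes are high in female liver, and 5 of 8 were tested. They were at 2.62 in glo2-/- replicate 6 and at 4.60, 2.01, 3.02 and 2.18 in glo2+/+ replicates 2 to 5. The other 7 libraries spanned 1.27 to 2.82. Among these, glo2-/- replicates 1 and 2 had 2.82 and 1.88, and glo2+/+ replicate 1 had 2.165. Of the tested yolk genes, vtg1, vtg3 and vtg7 reached at most 8.14, 8.64 and 22.4 CPM in any library. vtg5 ranged from 94.8 to 254 CPM in glo2-/- and from 133 to 396 CPM in glo2+/+ libraries. Intestine markers (8 of 14 tested) lay between 4.49 and 5.44 in glo2-/- and between 4.97 and 5.66 in glo2+/+ libraries. This mean includes genes abundant in these livers, such as RBP2 (ENSDARG00000070038) at 1094 CPM and apoa4b.1 at 836 CPM. Single genes varied more: FABP2 ranged from 2.92 to 101 CPM in glo2-/- and from 2.24 to 34.7 CPM in glo2+/+ libraries. A narrow range of the mean thus does not show an even share of intestine. Kidney markers (5 of 14 tested) lay between 2.84 and 3.22 in glo2-/- and between 2.37 and 3.53 in glo2+/+ libraries, highest in glo2+/+ replicate 1. Among kidney genes too low to be tested, the highest glo2+/+ values were 8.04 CPM for SLC12A3 and 3.09 CPM for SLC12A1. Both values lay in glo2+/+ replicate 1, which also had the most sult2st1, ugt5b2 and ugt5b5, and a link was not tested. The glo2+/+ medians of SLC12A3 and SLC12A1 were 0.0519 and 0 CPM, so these levels were not shared by most glo2+/+ libraries. In glo2-/- libraries their highest values were 0.125 and 0 CPM. The other untested kidney genes had at most 2.19 CPM in any library. The labels give no batch, date or sex to set against these patterns, and the part of such factors was not tested.

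The genotype comparison asked whether liver of fish homozygous for the knockout allele carried other levels of the conjugation enzymes. None of the 38 tested members passed an adjusted p of 0.05 by edgeR's quasi-likelihood test with Benjamini-Hochberg adjustment over all tested genes, where 1 gene did (0.00689%). The lowest adjusted p of a member was 0.799 by edgeR and 0.289 by DESeq2, which called 0 of the 46 members with an adjusted p, beside 0.178% of all genes. At an unadjusted p under 0.05, edgeR counted 4 of 38 members, or 10.5%, against 5.88% of all tested genes. All 4 were lower in glo2-/- liver, a direction in which 3.41% of all tested genes were counted, and 0 members were higher, against 2.47%. DESeq2 named the same 4 (8.51% of members, 4.72% of all genes), and limma on log2(TPM + 1) only sult1st3 (2.63% and 4.67%). In no member did the 6 glo2-/- libraries lie apart from the 6 glo2+/+ libraries, which 0.248% of all tested genes did.

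The 4 genes with the smallest p were ugt1b4, sult2st1, sult1st3 and sult2st2. ugt1b4 (ENSDARG00000097024) had 4.32, 4.94 and 7.35 CPM as lowest, median and highest values in glo2-/- libraries and 6.18, 7.84 and 10.5 CPM in glo2+/+ libraries. Most glo2-/- libraries lay below all glo2+/+ ones, but replicate 2 reached into their range. Its log2 fold change was -0.57 (SE 0.18, edgeR quasi-likelihood unadjusted p = 0.00615, adjusted p = 0.799). Its span in GRCz12tu overlaps those of 5 other ugt1b copies and its counts were not whole in any library. The sum of the ugt1b run was 57.5 ± 7.29 CPM in the glo2-/- group, against 68.5 ± 10.8 CPM in the glo2+/+ group (SD, n = 6 each).

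sult2st2 had 56.8, 64.4 and 94.7 CPM as lowest, median and highest values in glo2-/- libraries and 76.8, 85.7 and 95.6 CPM in glo2+/+ libraries. Of the glo2-/- libraries, 5 lay below the lowest glo2+/+ library and replicate 2 lay near the top. The log2 fold change was -0.30 (SE 0.13, edgeR quasi-likelihood unadjusted p = 0.0411, adjusted p = 0.819). For sult1st3, with the values given above, it was -1.28 (SE 0.47, 95% interval -2.30 to -0.27, edgeR adjusted p = 0.819). Both genotypes had libraries in the low and in the high set, 5 low and 1 high in glo2-/- and 2 low and 4 high in glo2+/+ liver. The sum of its run of 5 copies was 74.2 ± 43.9 CPM in the glo2-/- group, against 163 ± 89.0 CPM in the glo2+/+ group (SD, n = 6 each), and sult1st1 had a log2 fold change of -1.31 (SE 0.68, edgeR adjusted p = 0.819).

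sult2st1 had 0.487, 0.736 and 1.06 CPM as lowest, median and highest values in glo2-/- libraries and 0.584, 0.809 and 13.7 CPM in glo2+/+ libraries. The medians lay close together, and much of the difference came from glo2+/+ replicate 1. Replicate 2 of glo2+/+, at 3.48 CPM, also lay above all glo2-/- libraries. With all libraries the fitted difference on the log2 scale was -2.10 (SE 0.77, adjusted p = 0.819 by edgeR), and it was -0.70 without glo2+/+ replicate 1 (edgeR unadjusted p = 0.167). The next smallest p belonged to ugt5b1, at 10.2, 11.8 and 14.2 CPM in glo2-/- libraries and 12.2, 14.8 and 15.7 CPM in glo2+/+ libraries, with a log2 fold change of -0.25 (SE 0.12, edgeR unadjusted p = 0.0598).

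**Figure D4:**
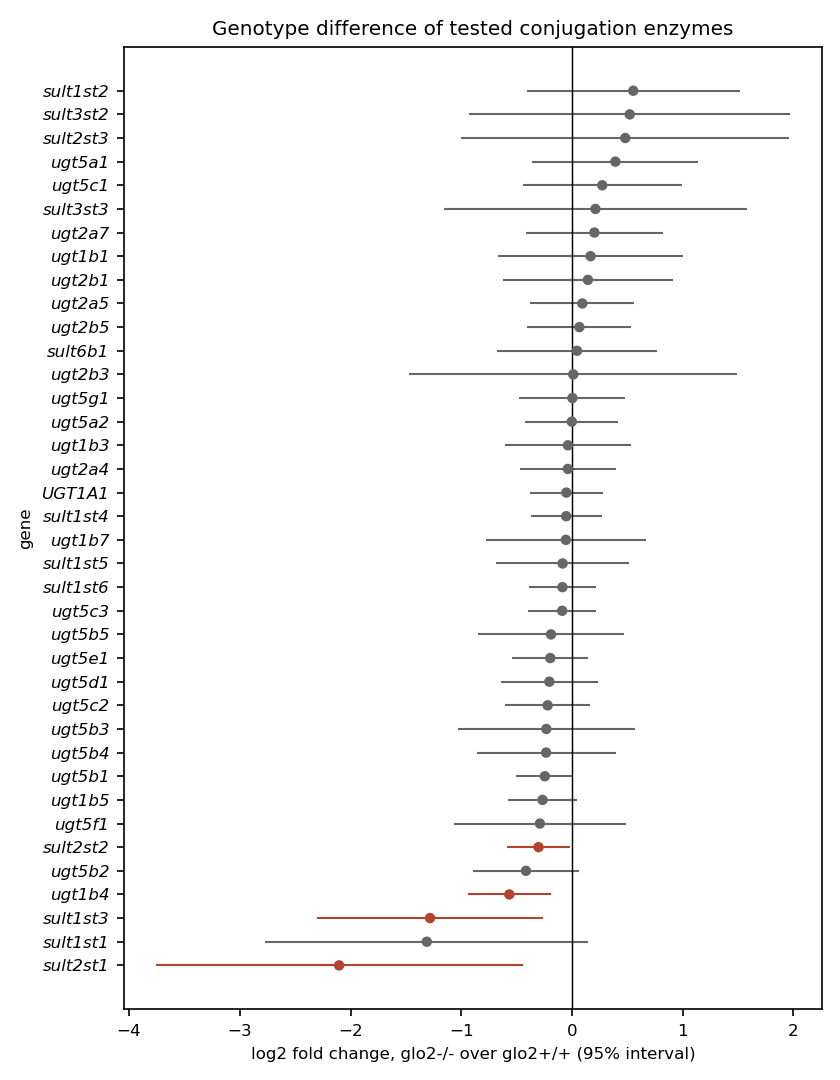
Log2 fold change of glo2-/- over glo2+/+ with its 95% interval (edgeR) for the 38 tested genes, highest at the top. Red marks the 4 genes with an unadjusted p under 0.05, sult2st2, ugt1b4, sult1st3 and sult2st1, all below 0; none passed the adjusted threshold.

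For most of the abundant copies the intervals limit the size of a genotype difference. An exception was sult1st3, with a wide interval of -2.30 to -0.27, while that of sult2st2 was -0.59 to -0.01. The log2 fold change was -0.05 for UGT1A1 (95% interval -0.38 to 0.28), -0.04 for ugt2a4 (-0.47 to 0.40), -0.22 for ugt5c2 (-0.61 to 0.17), -0.20 for ugt5d1 (-0.64 to 0.23), -0.09 for sult1st6 (-0.39 to 0.22) and -0.05 for sult1st4 (-0.37 to 0.27), with UGT1A1, ugt2a4 and sult1st4 above 0 in log2(TPM + 1). Of the 38 members, 26 had a 95% interval within a 2-fold change in either direction. Intervals of the variable genes were wide, for example -1.16 to 1.58 for sult3st3, -0.93 to 1.97 for sult3st2, -0.41 to 1.51 for sult1st2 and -1.47 to 1.49 for ugt2b3. The median log2 fold change was -0.05 over the members and -0.01 over all tested genes in CPM, and 0.04 and 0.05 in log2(TPM + 1). In CPM 24 of the 38 members were below 0 (63.2%, against 52.4% of all tested genes), and in log2(TPM + 1) 17 were (44.7%, against 37.6%). The balance of signs therefore depended on the unit, in the members as in all genes.

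Genes that supply the donors, split or carry the conjugates, or control these enzymes were described from 6 lists, and no member of any list passed the adjusted threshold. Of 9 tested genes that supply UDP-glucuronate, 4 were above 0 and 5 below. The abundant ones were pgm1, a phosphoglucomutase, at 231 ± 43.1 CPM in the glo2-/- group, against 280.0 ± 35.6 CPM in the glo2+/+ group, and UGP2 (ENSDARG00000005578), which makes UDP-glucose, at 119 ± 31.2 CPM in the glo2-/- group, against 136 ± 25.6 CPM in the glo2+/+ group (SD, n = 6 each). SLC35B1, a nucleotide carrier of the endoplasmic reticulum, had 90.9 ± 25.4 CPM in the glo2-/- group, against 63.8 ± 21.9 CPM in the glo2+/+ group (SD, n = 6 each).

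Of 13 tested genes of sulfate and PAPS supply, 7 were above 0 and 6 below. PAPSS2 (ENSDARG00000071021), a synthase of the sulfate donor, had 60.1, 69.5 and 94.1 CPM as lowest, median and highest values in glo2-/- libraries and 87.1, 102 and 148 CPM in glo2+/+ libraries. The ranges overlapped at their ends. Its log2 fold change was -0.51 (SE 0.17, edgeR unadjusted p = 0.00777, adjusted p = 0.799). SLC35B3, which carries PAPS into the Golgi, had a log2 fold change of 0.29 (SE 0.12, edgeR unadjusted p = 0.0316, adjusted p = 0.819). CDO1, which oxidises cysteine on the way to sulfate, was the most abundant gene of that list, at 997 ± 160 CPM in the glo2-/- group, against 980 ± 217 CPM in the glo2+/+ group (SD, n = 6 each). BPNT1, which removes the spent donor, had 25.3 ± 10.4 CPM in the glo2-/- group, against 21.5 ± 4.36 CPM in the glo2+/+ group, and sulfite oxidase, SUOX, 43.7 ± 9.89 CPM in the glo2-/- group, against 49.3 ± 13.6 CPM in the glo2+/+ group (SD, n = 6 each).

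Among 8 tested genes listed for conjugate hydrolysis, a beta-glucuronidase and sulfatases, 3 were above 0 and 5 below. The beta-glucuronidase GUSB led with 213 ± 43.4 CPM in the glo2-/- group, against 234.5 ± 58.7 CPM in the glo2+/+ group (SD, n = 6 each). The arylsulfatases ARSA and ARSB averaged 8.57 and 3.70 CPM over the 12 libraries. Whether the listed arylsulfatases act on conjugates made by the sulfotransferases was not tested. Among 9 tested of 17 transporters 3 were above 0 and 6 below. slco1d1, an uptake carrier of organic anions, had 444, 458 and 582 CPM as lowest, median and highest values in glo2-/- libraries and 537, 629 and 945 CPM in glo2+/+ libraries, with a log2 fold change of -0.47 (SE 0.15, edgeR unadjusted p = 0.00761, adjusted p = 0.799). The genotypes overlapped. The export pump abcc2 of the bile canaliculus had 266 ± 48.2 CPM in the glo2-/- group, against 299 ± 64.3 CPM in the glo2+/+ group (SD, n = 6 each), and ABCC4 and abcg2a averaged 119 and 81.7 CPM over the 12 libraries.

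Of 14 tested receptors and transcription factors 5 were above 0 and 9 below. NFE2L2, which drives genes of the electrophile response, had 60.4, 89.2 and 108 CPM as lowest, median and highest values in glo2-/- libraries and 111, 120 and 137 CPM in glo2+/+ libraries. Its groups did not overlap, as for 0.248% of all tested genes, and the log2 fold change was -0.46 (SE 0.13, edgeR unadjusted p = 0.00418, adjusted p = 0.734). The retinoid X receptor copy RXRA (ENSDARG00000057737) had a log2 fold change of -0.79 (SE 0.24, edgeR unadjusted p = 0.00521) and arnt, the partner of the aryl hydrocarbon receptor, of -0.57 (SE 0.26, edgeR unadjusted p = 0.0478). HNF4A, the bile acid receptor NR1H4 and keap1a averaged 226, 33.4 and 92.0 CPM over the 12 libraries. Of 13 tested other transferases with related names 7 were above 0 and 6 below, and UGT8, TPST1 and NDST1 (ENSDARG00000103606) averaged 91.1, 78.9 and 47.8 CPM.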

How the data were processed

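The RNA came from a TRIzol extraction and was prepared for the BGISeq-500 platform, per the labels' protocols. The authors deposited, for each of 12 libraries, estimated counts per gene and TPM, transcripts scaled to a sum of 1000000. The tools named are Trim Galore 0.6.4 for trimming, kallisto 0.4.6 for quantification and the build GRCz11, per the submitters' processing notes. The annotation release, strand setting and step from transcripts to genes are not stated there. Of the deposited estimated counts, 19.1% were not whole (tolerance 0.001).

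Rounded counts entered edgeR 4.0.16 under R 4.3.3 (low-count filter filterByExpr, TMM factors, quasi-likelihood test, genotype as the only term), with Benjamini-Hochberg adjustment over all tested genes at 0.05. CPM carry TMM factors, and log2 CPM a prior count of 2. Standard errors and intervals were derived from that test's F statistic. Levels of different genes were compared in TPM.

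Symbols were found for 29201 of 32520 identifiers, many of them human-style. RefSeq, with 62 genes under the same rule, placed 45 of the 48 members and served for gene order only. Of 160 entries in 11 gene lists (6 of pathways, 5 of markers), 11 matched no gene. Members and lists were chosen with earlier results of these data known. The text names members with a mean of at least 1 TPM, the 5 tested members with the smallest p, and per pathway list the genes with an unadjusted p under 0.05 and up to 3 further abundant ones. Alternatives were DESeq2 size factors, no filter, a filter of 50 counts in 6 libraries, DESeq2 1.42.0, limma 3.58.1 on log2(TPM + 1) or log2(TPM + 0.1), a block for the replicate number, the mean level of the exocrine pancreas markers as a covariate, and leaving out each library. For levels, thresholds of 0.5 and 2 TPM or 1 CPM were tried. No sequences of these genes were used here.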

Additional observations from a re-analysis of the deposited data

Results flagged for a closer look

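Outlying libraries were looked for by Dixon's criterion in 72 sets of 6 log2 CPM values, where chance flags about 1 in 20, or 4 sets. It marked 3. sult1st1 stood at 3.30 in glo2-/- replicate 6, above 0.12 to 0.77 in the other 5 glo2-/- libraries. ugt2b1 stood at 4.34 in the same library, above 2.48 to 2.94 in the others. ugt5g1 stood at 1.87 in glo2+/+ replicate 2, below 2.89 to 3.29 in the other 5 glo2+/+ libraries.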

How the results depend on the processing

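No alternative of the 20 called a conjugation enzyme, and the lowest adjusted p of a named member in any of them was 0.289 (DESeq2). Over all genes DESeq2 called 34 where edgeR called 1, and leaving out each library gave 1 to 3, with 3 without glo2-/- replicate 6 and 2 without glo2+/+ replicate 6; the cause was not tested. Members with an unadjusted p under 0.05 numbered 3 to 6 of 38 with a library left out, where 620 to 1143 of all tested genes had one. In log2(TPM + 1) and log2(TPM + 0.1) 1 of 38 members had one, beside 678 and 666 of all tested genes. The log2 fold change of sult2st1 was -0.70 without glo2+/+ replicate 1. In CPM, not divided by length, the UGT1A1 share of its family was 82.6%. The number expressed was 38 at 0.5 TPM, 32 at 2 TPM and 37 at 1 CPM. Of 35 named members, 18 kept the sign of their log2 fold change throughout, and 75 of 693 alternative values reversed it. In log2(TPM + 1) and log2(TPM + 0.1) the reversed values were 0.13 and 0.14 for sult1st4, 0.073 and 0.10 for sult1st5, 0.071 and 0.071 for UGT1A1, -0.028 and -0.12 for sult3st3, 0.054 and 0.054 for ugt2a4, 0.082 and 0.11 for ugt5a2, 0.0104 and 0.0010 for ugt1b3, 0.15 and 0.29 for ugt5b3, and 0.092 and 0.12 for ugt1b7; sult6b1 reversed at the lower pseudocount to -0.0053. Values of ugt5a2 were 0.0022 with DESeq2 size factors, 0.0019 with no filter and 0.0045 with DESeq2, and ugt5g1 had -0.0014 under the stricter filter, which left sult2st1, sult1st1 and other low genes untested. The labels do not say whether the replicate numbers pair the libraries. Deviations of same-numbered libraries from their genotype means had correlations of -0.28 to 0.21. glo2-/- replicates 1 and 4 correlated best with the glo2+/+ library of their own number and the others did not, which cannot settle the question. With the replicate number as a block no member was called, and 2 of 38 members had an unadjusted p under 0.05, beside 780 of all tested genes. In that fit sult2st1 had -0.99, and the reversed values were -0.19 for sult3st3, -0.059 for sult6b1 and 0.019 for ugt5a2. With a library left out, the members that reversed ranged from -0.11 to 0.016 (sult1st4), -0.20 to 0.11 (sult1st5), -0.15 to 0.015 (UGT1A1), -0.028 to 0.27 (ugt2a5), -0.14 to 0.11 (ugt5g1), -0.30 to 0.73 (sult3st3), -0.13 to 0.073 (ugt2a4), -0.19 to 0.25 (sult6b1), -0.26 to 0.32 (ugt2b1), -0.089 to 0.14 (ugt5a2), -0.13 to 0.39 (ugt1b1), -0.20 to 0.11 (ugt1b3), -0.17 to 0.24 (ugt1b7), -0.38 to 0.13 (ugt5b5), -0.26 to 0.35 (ugt2b3) and -0.059 to 0.17 (ugt2b5). Depth limits the 13 copies below 1 TPM, and read sharing between similar copies limits all values of single copies in a run.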
